A study of Mus musculus with 12 samples.

Results

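The 10 genes described here encode proteins that shape the endoplasmic reticulum (ER): Rrbp1 and its partner on the mitochondrial surface, Synj2bp; the sheet proteins Ckap4 and Ktn1; and Rtn4, Rtn3, Reep5, Arl6ip1, Atl2 and Atl3, which form or join ER tubules. They were taken by symbol from 35498 genes. Their values were not part of the rule, but earlier results of these data were known when they were chosen. All 10 passed the filter on low counts that left 11181 tested genes. Their mRNA was measured in wrappER-associated mitochondria (WAM) fractions, which are liver mitochondria recovered together with the ER wrapped around them, and in the postnuclear liver lysates the fractions were prepared from. Both kinds of library came from the same male C57BL/6N mice, 9 to 12 weeks old and 3 hours into the postprandial state after a night without food, and the labels name no genetic or drug treatment in either group. There were 6 WAM and 6 lysate libraries of poly(A) RNA, 1 of each from every mouse. Protein was not analysed here: every value below is a level or a change of mRNA, and the fraction was taken from whole liver, so all of its cell types contribute, and fewer cells of a type cannot be told apart from less RNA per cell.

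The ER is a continuous membrane of flat sheets and curved tubules. Sheets carry most ribosomes and are kept apart by proteins with long coiled coils, while tubules are held in shape by hairpin proteins of the reticulon and REEP families and joined by atlastins, GTPases that fuse ER membranes. In hepatocytes, sheets of rough ER wrap around mitochondria, and RRBP1 on the ER binds SYNJ2BP on the mitochondrial outer membrane. An mRNA can travel with the ER while its nascent chain, held by a membrane segment that has left the ribosome, is being inserted, whereas tail-anchored proteins are released from the ribosome before insertion.

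Total estimated counts ranged from 8344196 to 9712455 in WAM libraries and from 7400274 to 12024128 in lysates. The 13 mRNAs of the mitochondrial genome made up 17.9% ± 4.63 of counts in WAM and 2.69% ± 0.374 in lysates (SD, n = 6 each). Markers of hepatocytes dominated both fractions, at a summed 26643 to 59012 TPM (a length-scaled transcript level) in WAM and 34452 to 61085 TPM in lysates. Mouse 5 stood apart in its marker levels. Its hepatocyte sums, 26643 TPM in WAM and 34452 TPM in lysate, were the lowest of each fraction, and its 8 sinusoidal endothelial markers were the highest, at 99.7 TPM in WAM, against at most 76.0 in the other 5 WAM libraries, and 132 TPM in lysate, against at most 104 in the other 5 lysates. Its 9 Kupffer cell markers summed to 601 TPM in WAM, against 198 to 275 in the other 5 WAM libraries, and to 626 TPM in lysate, against 157 to 259 in the other 5 lysates. Its 6 neutrophil markers summed to 12.9 TPM in WAM, against 1.35 to 2.66 in the others, and to 62.4 TPM in lysate, against 3.28 to 10.4. No marker of these lists was at 0 in all 12 libraries, and 0 of the 6 neutrophil markers passed the filter on low counts.

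Of the 10 genes, 8 were higher in WAM and 1, Synj2bp, was lower, and Atl3 did not pass the test (edgeR quasi-likelihood F test over 11181 genes with TMM scaling, which centres on the typical mRNA; Benjamini-Hochberg adjusted p under 0.05). In the same fit 29.5% of all genes were called higher and 28.8% lower, 58.2% in all, so a call alone sets no gene apart. In 7 of the 10, all but Synj2bp, Ckap4 and Atl3, every WAM library lay above every lysate, as it did for 20.3% of all tested genes, and 14.2% showed the opposite. The median log2 fold change was 1.12 over the 10 genes and -0.08 over all tested genes, and 7 of the 10 were called at least 2-fold higher, as were 16% of all tested genes. The direction depends on scaling. Scaled to library totals, where the abundant mitochondrial mRNAs count toward the total, the median of all genes moved by -1.11, and Ktn1, Rtn4, Atl2 and Atl3 came out at -0.044, -0.0084, -0.52 and -0.90, of which those of Atl2 and Atl3 were called. On TPM plus 1 (limma) it moved by -1.14, and of the 10 genes Rrbp1 at 0.33 and Reep5 at 0.049 were above 0, the second not called. Rrbp1 was called higher and Synj2bp lower under all 14 alternatives that were run. Of the 11181 genes, however, 8649 were called lower with library totals and 9570 on TPM plus 1, so a lower call there does not set Synj2bp apart. Relative to the median of all genes, Synj2bp was at -0.16 in the main fit and -0.16 with library totals. Changes are therefore given relative to the typical mRNA.

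**Figure D1:**
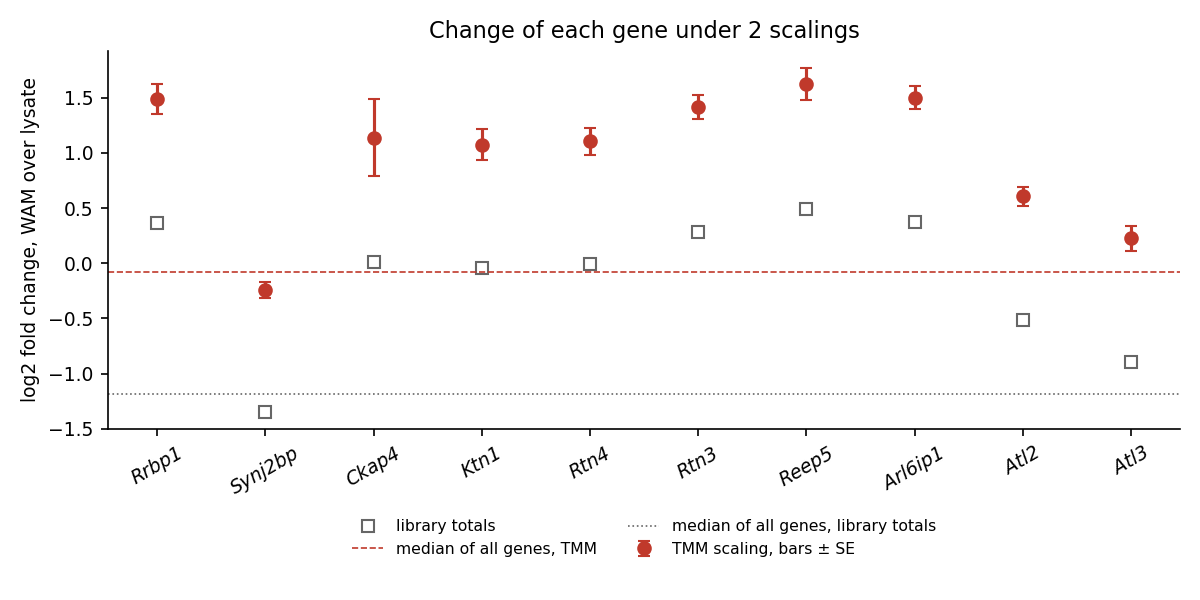
Log2 fold change, WAM over lysate, of the 10 genes (vertical axis) with TMM scaling and, as open squares, with library totals. Bars are ± SE, derived from the F statistic of the fit to 6 WAM and 6 lysate libraries. Dashed and dotted lines are the medians of all 11181 tested genes under each scaling. Both sets of points show the same order against their own median: 8 genes at 0.61 to 1.63 with TMM, Atl3 at 0.23 and Synj2bp at -0.24, while with library totals Ktn1, Rtn4, Atl2 and Atl3 lie below 0 but above the dotted line.

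Rrbp1 (ENSMUSG00000027422; chromosome 2, 143947395 to 144011263, minus strand, GRCm38) encodes ribosome-binding protein 1, also called p180, a sheet protein with an N-terminal membrane anchor and a long cytosolic arm. Its first hydrophobic segment, a run of 19 codons with mean Kyte-Doolittle hydropathy of at least 1.6, begins at codon 10 of 1464, so 1436 codons follow it. Synj2bp (ENSMUSG00000090935; chromosome 12, 81497941 to 81532911, minus strand) encodes a tail-anchored protein whose cytosolic PDZ domain comes first; its segment begins at codon 120 of 145 and leaves 7 codons. The coding sequences around both segments are shown because the partners hold them at opposite ends. Capitals mark the hydrophobic segment, with 15 bases on each side, read from GENCODE M21 transcripts Rrbp1-201 (chr2:143990147-143990233) and Synj2bp-203 (chr12:81502035-81502121).
Rrbp1: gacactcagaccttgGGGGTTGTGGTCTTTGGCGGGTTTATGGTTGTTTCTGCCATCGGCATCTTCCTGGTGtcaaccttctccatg
Synj2bp: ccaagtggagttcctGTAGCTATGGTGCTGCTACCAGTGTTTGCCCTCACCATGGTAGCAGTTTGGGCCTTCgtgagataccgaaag

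Rrbp1 mRNA rose in WAM and Synj2bp mRNA fell slightly on the TMM scale. The lowest, median and highest of 6 libraries for Rrbp1 were 412, 539 and 595 CPM (library-scaled counts on the TMM scale) in WAM, against 137, 189.5 and 217 CPM in lysates. Every WAM library was above every lysate. The log2 fold change was 1.49 (SE 0.14, adjusted p = 5.68e-07), with WAM above lysate in 6 of 6 mice. Synj2bp had 55.6, 60.0 and 67.1 CPM in WAM, against 65.6, 71.7 and 80.6 CPM in lysates. The ranges met only at their edges, and WAM was below lysate in 6 of 6 mice. Its log2 fold change was -0.24 (SE 0.07, adjusted p = 0.0115); without mouse 1 the adjusted p was 0.050. Synj2bp overlaps a readthrough gene on the same strand, Gm20498, which had 13.5 to 30.7 estimated counts in WAM and 40.7 to 73.8 in lysates, so reads can be split between them. With both counted as 1 gene, an alternative chosen after seeing the data, the change was -0.25 (adjusted p = 0.0114).

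Within a library, the ratio of Rrbp1 to Synj2bp needs no scaling. Its log2 value, from counts, averaged 3.08 ± 0.28 in WAM and 1.33 ± 0.33 in lysates (SD, n = 6 each), a difference of 1.74, or 3.35-fold, in the same direction in 6 of 6 mice. The lowest WAM library, at 2.62, was above the highest lysate, at 1.72 (two-sided exact permutation test over 924 assignments, p = 0.00216, the smallest possible; adjusted over 8 pairs, 0.0173). With labels exchanged only within mice, where 64 assignments allow no p under 0.0313, the adjusted p was 0.05 and the call was lost. From TPM the difference was 2.12.

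Rrbp1 also differed in the length of the transcripts counted for it. Estimated counts divided by TPM give a library's abundance-weighted transcript length. Calibrated on 492 genes with 1 annotated transcript and at least 50 counts in every library, it returned their annotated lengths with a median error of 0%. That error was computed on the genes used for the calibration. It checks the formula and not how reads were assigned among several transcripts of a gene. For Rrbp1 the implied length was 1685 to 2013 bases in WAM and 2084 to 2473 bases in lysates, with means of 1789 ± 146 bases in WAM and 2262 ± 147 bases in lysates (SD, n = 6 each). No WAM library reached the shortest lysate value, the mean was 20.9% lower in WAM, and it was shorter in 6 of 6 mice. This pattern was singled out after its values were seen and has no test. Of 5845 genes with more than 1 annotated transcript, 124 (2.12%) were at least 10% shorter in WAM with no overlap. The other 9 genes differed by between -2.61%, for Atl2, and 1.68%, for Ckap4. Atl2 was also shorter in 6 of 6 mice with no overlap, at 3422 to 3534 bases in WAM and 3560 to 3616 bases in lysates. Rtn4, at -2.39%, was shorter in 6 of 6 mice, with ranges that overlapped. The Ckap4 value rests on 6 to 29 counts per library, under the minimum of 50 used for the calibration.

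**Figure D2:**
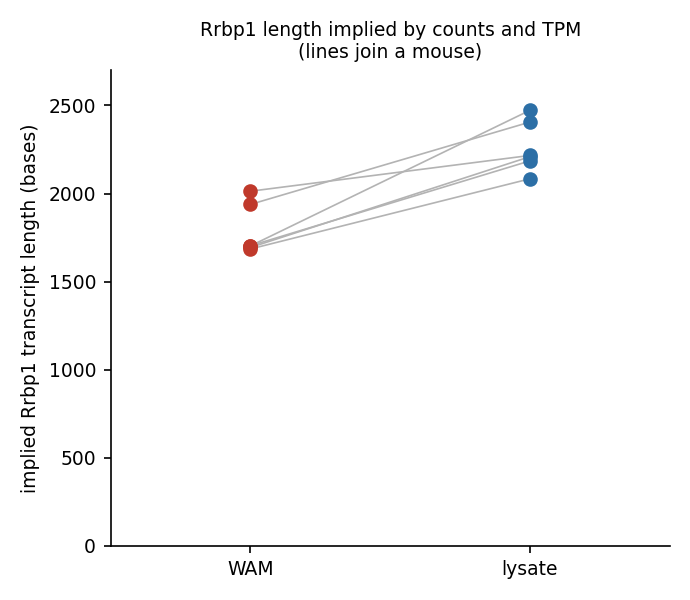
Implied Rrbp1 transcript length in bases (vertical axis, from 0) in WAM and lysate libraries; points are libraries and lines join the 2 libraries of a mouse. All 6 WAM points, at 1685 to 2013 bases, lie under all 6 lysate points, at 2084 to 2473 bases.

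GENCODE M21 lists 8 Rrbp1 transcripts. Of these, 2 are protein coding, Rrbp1-201 with 4392 coding bases of 5177 and Rrbp1-202 with 2103 of 2701. The other 6 are processed transcripts of 516 to 2896 bases. All implied lengths, at most 2473 bases, were below both coding transcripts. With these annotated lengths, the Rrbp1 level of every library includes some of the shorter processed transcripts. The share of each transcript cannot be read from gene-level values. Both coding transcripts hold the tandem repeat that gives p180 its repeated decapeptides, which are known for binding ribosomes: 703 bases, or 23.4 units of 30 bases, at 75% identity or more between neighbours. Reads from such a repeat are hard to place along the transcript. The commonest unit, which occurs 3 times, is shown in capitals with the unit after it, which matches it at 27 of 30 bases (chr2:143989547-143989606, minus strand).
Rrbp1 repeat: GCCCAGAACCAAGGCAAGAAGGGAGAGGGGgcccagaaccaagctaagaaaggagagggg

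The other sheet genes were higher in WAM on the TMM scale, Ktn1 in every mouse and Ckap4 on few counts. Ktn1 (ENSMUSG00000021843; chromosome 14, 47648448 to 47739894, plus strand) encodes kinectin, an ER membrane protein with a long coiled coil first described as a kinesin receptor. It had 14.9, 19.04 and 24.8 CPM in WAM as the lowest, median and highest, against 7.47, 8.84 and 11.5 CPM in lysates, and the groups did not overlap. The log2 fold change was 1.08 (SE 0.14, adjusted p = 1.82e-05), but -0.044 with library totals. Like Rrbp1 it has its first hydrophobic segment near the start, from codon 9 of 1327 with 1300 codons after it, shown in capitals (principal transcript, chr14:47663796-47663882).
Ktn1: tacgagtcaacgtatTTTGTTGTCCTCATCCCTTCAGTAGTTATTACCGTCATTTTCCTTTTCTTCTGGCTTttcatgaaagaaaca

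Ckap4 (ENSMUSG00000046841; chromosome 10, 84526305 to 84534062, minus strand) encodes CLIMP-63, a coiled-coil spacer of sheet lumens. It was near the lower end of what was tested, with 8 to 29 counts per WAM library and 6 to 22 per lysate. Its lowest, median and highest values were 1.23, 2.10 and 5.45 CPM in WAM and 0.522, 1.29 and 1.43 CPM in lysates, and the groups overlapped. The log2 fold change was 1.14 (SE 0.35, adjusted p = 0.0130), higher in 5 of 6 mice. Its highest library was WAM of mouse 5, at 29 counts, the library with the highest Kupffer cell and neutrophil marker sums among WAM libraries. Without mouse 5 the change was 0.86 and was still called; the part of those cells in the Ckap4 level was not tested. With library totals it was 0.015.

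Among the tubule genes, the hairpin proteins rose together on the TMM scale. Rtn4 (ENSMUSG00000020458; chromosome 11, 29692947 to 29744331, plus strand) encodes reticulon 4, also called Nogo, and Rtn3 (ENSMUSG00000024758; chromosome 19, 7425901 to 7483281, minus strand) encodes reticulon 3, which besides bending tubules is known as a receptor for their autophagy. Rtn4 had 56.0, 67.2 and 80.9 CPM in WAM, against 22.2, 32.5 and 35.7 CPM in lysates, with no overlap. Its log2 fold change was 1.11 (SE 0.12, adjusted p = 3.37e-06), and -0.0084 with library totals. Rtn3 had 165, 217 and 255 CPM in WAM, against 77.9, 80.9 and 84.8 CPM in lysates. The lysates of Rtn3 were close together and lay far under the WAM libraries, for a change of 1.42 (SE 0.11, adjusted p = 1.23e-07), and 0.29 with library totals.

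Reep5 (ENSMUSG00000005873; chromosome 18, 34344885 to 34374070, minus strand) encodes a hairpin protein of the REEP family that curves tubules, and Arl6ip1 (ENSMUSG00000030654; chromosome 7, 118118891 to 118129662, minus strand) a small hairpin protein of similar topology. Reep5 had 23.5, 33.5 and 44.7 CPM in WAM, against 9.34, 10.8 and 11.8 CPM in lysates. The groups did not overlap, and the log2 fold change of 1.63 (SE 0.15, adjusted p = 4.84e-07) was the highest of the 10. Arl6ip1 had 261, 325 and 382 CPM in WAM, against 103, 113 and 126 CPM in lysates. It also showed no overlap, with a change of 1.501 (SE 0.11, adjusted p = 8.01e-08). With library totals both stayed above 0, at 0.49 for Reep5 and 0.37 for Arl6ip1. On TPM plus 1 they were at 0.049 for Reep5 and -0.054 for Arl6ip1, neither called.

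The atlastins changed least among the ER genes of the set. Atl2 (ENSMUSG00000059811; chromosome 17, 79848390 to 79896123, minus strand) and Atl3 (ENSMUSG00000024759; chromosome 19, 7494040 to 7539674, plus strand) encode GTPases that tether and fuse tubules at junctions. Atl2 had 87.2, 109 and 119.7 CPM in WAM, against 62.2, 69.7 and 76.6 CPM in lysates. The groups did not overlap, and the log2 fold change was 0.61 (SE 0.09, adjusted p = 5.00e-05), but -0.52 with library totals. Atl3 had 109.9, 151 and 159.8 CPM in WAM, against 101, 124 and 131 CPM in lysates. These ranges overlapped, with WAM above lysate in 5 of 6 mice and a change of 0.23 (SE 0.11, adjusted p = 0.0952). With the mouse as a block in the model Atl3 was called, at 0.22 (adjusted p = 0.0279), and likewise without mouse 2, at 0.31 (adjusted p = 0.0266), so it sits near the threshold.

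In the atlastins the GTPase domain comes first and the hydrophobic hairpin late. The first segment begins at codon 494 of 583 in Atl2, leaving 71 codons, and at codon 463 of 541 in Atl3, leaving 60. The segments are shown for comparison with those of Rrbp1, Ktn1 and Synj2bp, again in capitals (Atl2-201, chr17:79852606-79852692; Atl3-201, chr19:7532280-7532366).
Atl2: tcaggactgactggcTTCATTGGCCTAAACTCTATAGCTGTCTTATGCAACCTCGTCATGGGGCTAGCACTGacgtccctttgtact
Atl3: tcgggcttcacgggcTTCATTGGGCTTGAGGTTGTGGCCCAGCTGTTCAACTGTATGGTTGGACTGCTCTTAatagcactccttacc

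Levels of different genes were compared per length, in TPM. This scale carries the shift of the median gene by -1.14, so a gene can have fewer TPM in WAM and yet more CPM on the TMM scale. Rrbp1 was the most abundant of the 10 in both fractions, with 207, 216 and 233 TPM as the lowest, median and highest in WAM and 133, 182 and 189 TPM in lysates. Its TPM rests on implied lengths of 1685 to 2473 bases, below both of its coding transcripts. A longer length would lower its TPM, so its rank holds only for these length estimates. Arl6ip1 followed, at 105 to 120 TPM in WAM and 104 to 134 TPM in lysates, and then Rtn3, at 49.3 to 69.6 TPM in WAM and 62.7 to 75.5 TPM in lysates. In WAM the ranges of these genes did not overlap, while in lysates the lowest Rrbp1 library, that of mouse 1, lay within the Arl6ip1 range. Below them, the order differed between fractions. In WAM, Rtn4 had 22.9 to 34.1 TPM, Atl2 19.8 to 26.4, Atl3 12.0 to 19.9 and Synj2bp 9.60 to 15.8. In lysates, Synj2bp had 39.5 to 47.9 TPM, Atl2 36.0 to 46.0, Atl3 32.2 to 44.1 and Rtn4 26.2 to 44.3. The ranges of neighbours overlapped in both fractions. Within a library, however, Rtn4 was above Atl2 and Atl2 above Atl3 in 6 of 6 WAM libraries, and Atl3 was above Synj2bp in 5 of 6. In lysates Synj2bp was above Rtn4 in 6 of 6 libraries, while Synj2bp and Atl2, Atl2 and Atl3, and Atl3 and Rtn4 each changed places in 3 of 6. Lowest in both were Reep5 (6.81 to 9.52 TPM in WAM and 7.20 to 8.61 TPM in lysates), Ktn1 (2.49 to 4.34 TPM in WAM and 3.88 to 5.65 TPM in lysates) and Ckap4 (0.338 to 1.08 TPM in WAM and 0.428 to 1.04 TPM in lysates), none overlapping the next.

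Rrbp1 made up nearly all of the summed sheet mRNA, so a sum over Rrbp1, Ckap4 and Ktn1 follows Rrbp1. Divided by the sum over the 6 tubule genes within the same library, it came to 0.794 to 1.03 in WAM, with a median of 0.904, and to 0.472 to 0.681 in lysates, with a median of 0.572. The groups did not overlap on TPM, a scale on which the shorter implied length of Rrbp1 in WAM raises its value. From counts, an alternative chosen after seeing the data, the ratio was 0.545 to 0.659 in WAM, with a median of 0.617, and 0.356 to 0.569 in lysates, with a median of 0.455, and the groups overlapped. Counts carry no correction for length, so neither scale is free of the difference in implied length.

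**Figure D3:**
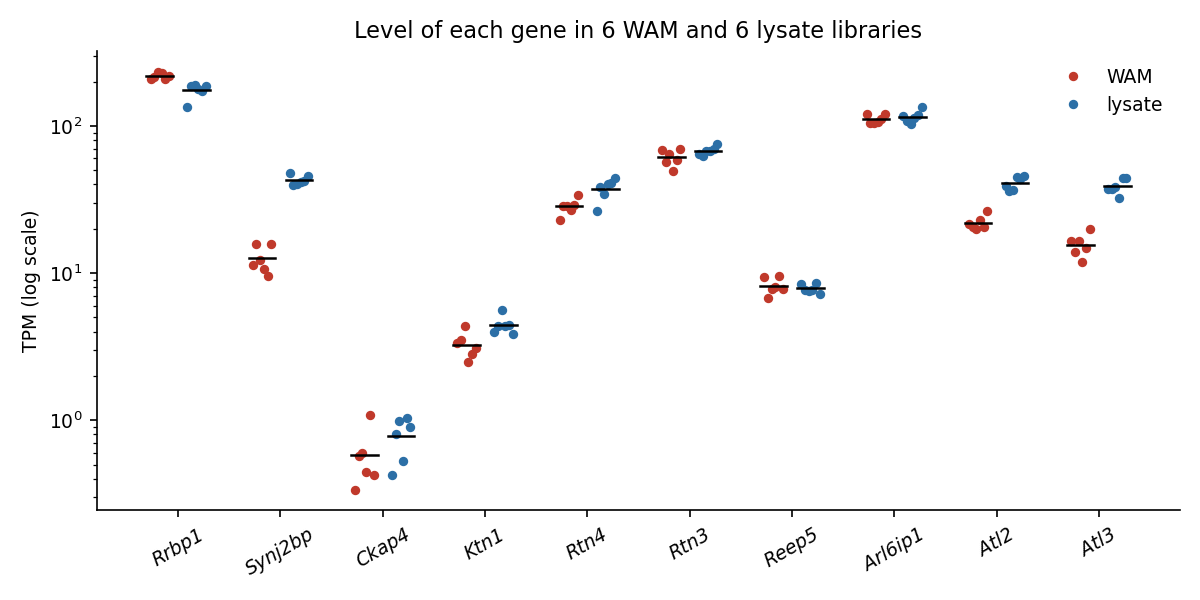
TPM of each gene (vertical axis, log scale) in 6 WAM and 6 lysate libraries; points are libraries and lines the group means. Rrbp1 is highest, at 207 to 233 TPM in WAM and 133 to 189 TPM in lysates, and Ckap4 lowest, at 0.338 to 1.08 TPM in WAM and 0.428 to 1.04 TPM in lysates; Synj2bp, Atl2 and Atl3 show the widest gaps between fractions on this scale.

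Ratios between members, taken within each library, were compared for 8 pairs. Besides Rrbp1 to Synj2bp, 2 pairs were called. Rrbp1 was higher relative to Ktn1: the log2 ratio averaged 4.73 ± 0.24 in WAM and 4.304 ± 0.23 in lysates (SD, n = 6 each), a difference of 0.43, or 1.35-fold, higher in 6 of 6 mice (two-sided exact permutation p = 0.0152, adjusted 0.0404). From TPM this difference was 0.78, a larger value, and Rrbp1 is the gene whose implied length differed most. Counts carry no correction for length, and which value is nearer was not tested. Atl3 was lower relative to Atl2, with log2 ratios of 0.40 ± 0.22 in WAM and 0.79 ± 0.20 in lysates (SD, n = 6 each), a difference of -0.39, lower in 6 of 6 mice (exact permutation p = 0.0108, adjusted 0.0404). With labels exchanged within mice both adjusted p-values were 0.05, not under the threshold.

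The remaining pairs did not pass the exact permutation test over all libraries. Rtn4 was lower relative to Rtn3 in 6 of 6 mice, by a log2 difference of -0.29 ± 0.06 (SD over mice; exact permutation p = 0.0563, adjusted 0.0900). Rtn4 relative to Reep5 was lower in 6 of 6 mice by -0.48 ± 0.18 (exact permutation p = 0.0281, adjusted 0.0563). For Rtn4 to Rtn3 the SD between libraries was 0.25 in WAM and 0.22 in lysates, wider than the 0.06 of the differences within mice. With labels exchanged only within mice, both Rtn4 pairs had an adjusted p of 0.05, the same as the 3 called pairs. Rrbp1 to Ckap4 gave 0.40 ± 0.46 (adjusted 0.375, exact permutation), which was 0.80 from TPM (adjusted 0.0563). Ckap4 to Ktn1 gave 0.03 ± 0.62 and Ckap4 to Rtn4 -0.01 ± 0.57 (adjusted 0.965 for both, exact permutation); with 6 to 29 Ckap4 counts per library, differences of that size in log2 could not be resolved.

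**Figure D4:**
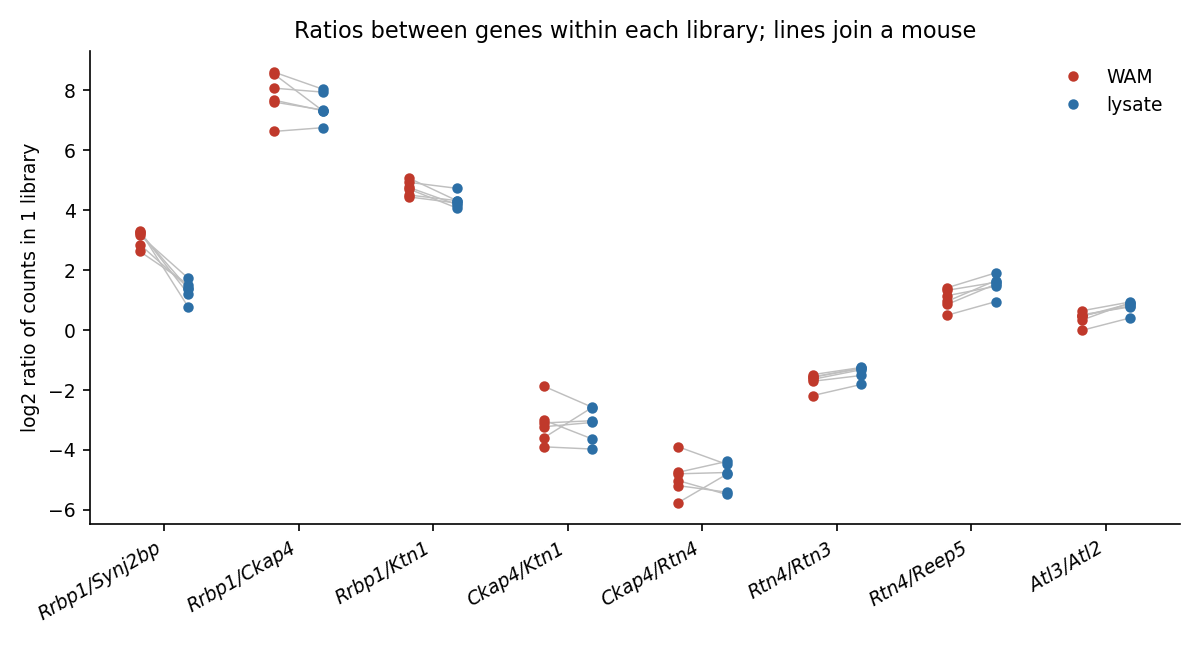
Log2 ratio of the estimated counts of 2 genes in 1 library (vertical axis) for 8 pairs; WAM points stand left of lysate points and lines join a mouse. Rrbp1/Synj2bp separates fully, at 2.62 to 3.31 in WAM and 0.761 to 1.72 in lysates, and the lines of Rtn4/Rtn3, Rtn4/Reep5 and Atl3/Atl2 run the same way in 6 of 6 mice although the points of the fractions overlap.

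The position of the first hydrophobic segment in the coding sequence, which played no part in choosing the genes, varied with the change on the TMM scale. Synj2bp, with 7 codons after it, had -0.24; Atl3 and Atl2, with 60 and 71, had 0.23 and 0.61; and the 7 genes with 100 codons or more, from Reep5 with 135 to Rrbp1 with 1436, lay between 1.08 and 1.63. Within these 7 the changes did not follow the number of codons, and over all 10 the rank correlation was 0.45, a description over genes of the same libraries. Transcript length gave a rank correlation of similar size, -0.44, over the same 10 genes. The bounds of 40 and 100 codons were set after the values were seen, so no test is given. In 4 lists of other genes with a segment, the median log2 fold change was 0.00 over the 30 genes with under 40 codons after it (6 higher, 3 lower), 0.63 over the 10 genes with 40 to 99 (6 higher, 1 lower) and 1.26 over the 49 with 100 or more (42 higher, 0 lower). Among the ER genes of these lists with 100 or more, 31 of 33 were higher with a median of 1.36, and among genes of the mitochondrial outer membrane 11 of 16, with a median of 0.76. The ranges overlapped widely: -0.60 to 1.23 with under 40 codons, -0.26 to 1.49 with 40 to 99 and -0.36 to 1.74 with 100 or more. All ER genes with under 40 codons except Lman1 came from the tail-anchored list, which was defined by a late segment. Among ER genes, segment position and list therefore cannot be told apart. Genes without a detected segment were left out. They include called genes in both directions, such as Srpr at 1.34, named after its values were seen, and Kif5b at -0.50. Lman1, a cargo receptor of the early secretory pathway, was singled out after its values were seen: it has 17 codons after its segment and a change of 1.23. Its segment begins at codon 482 of 517, and that of Canx, with a change of 1.49, at codon 486 of 591. Signal peptides were not searched for, and any below the hydropathy threshold was missed. The segment counted as first therefore need not be the first part of the chain to reach the ER. The windows are predictions from the principal isoform, not mapped membrane segments, and other transcripts of these genes also carried reads: the implied length of Atl3 was 6380 bases in WAM and 6381 bases in lysates, above the 4368 bases of Atl3-201.

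**Figure D5:**
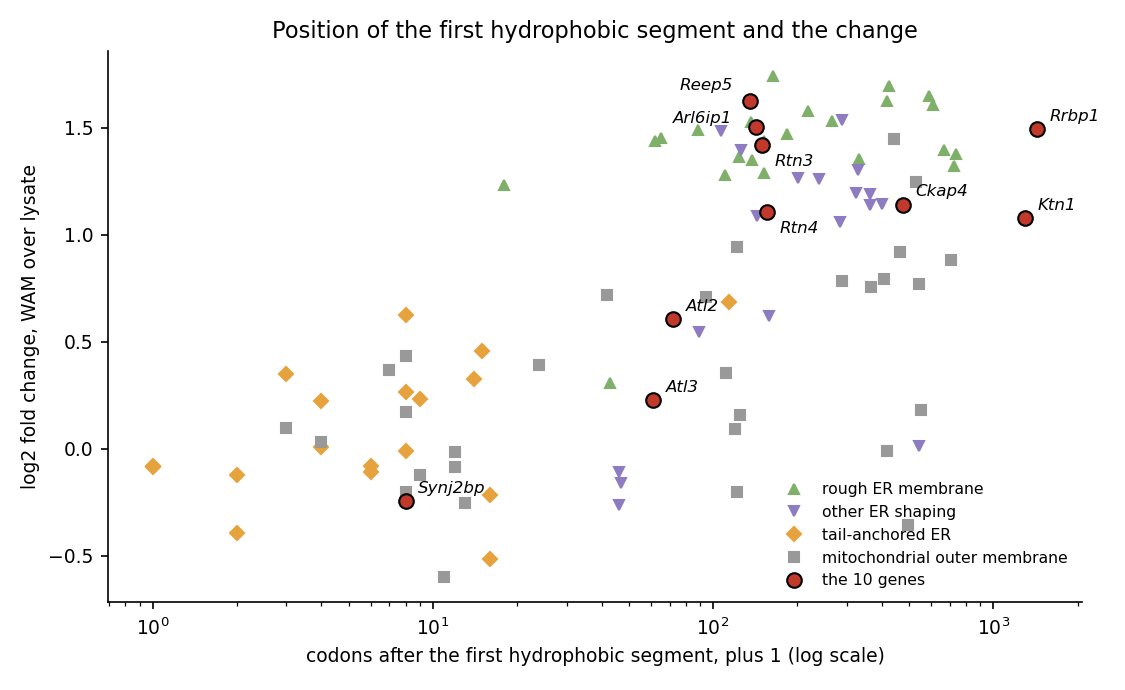
Log2 fold change, WAM over lysate (vertical axis, TMM scale), against the codons left after the first hydrophobic segment plus 1 (horizontal axis, log scale) for the 10 genes and 4 lists of other genes. Synj2bp lies among the tail-anchored genes near 0, at -0.24, Atl3 and Atl2 between, at 0.23 and 0.61, and the other 7 genes at 1.08 to 1.63 among the rough ER genes.

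Genes of related function moved as follows on the TMM scale. Of 23 tested genes of a list of other proteins linked to ER shape (27 symbols, ER-shaping genes below), 15 were called higher and 4 called lower. Their median change was 1.06 on the log2 scale. The 4 lower genes were Rab18, Kif5b, Rtn4ip1 and Tmcc3, the last 2 named after their values were seen. No hydrophobic segment was found in Rab18, Kif5b or Rtn4ip1, so the list is not limited to membrane proteins of the ER. The most abundant, Reep6, another REEP hairpin protein, averaged 348 TPM in WAM and 483 TPM in lysates and had a change of 1.09, and Rab18, a small GTPase of the ER and lipid droplets, was lower at -0.20. Tex264, a receptor for ER autophagy, was highest at 1.53, and Kif5b, a kinesin motor that moves tubules along microtubules, lowest at -0.50. All 24 tested genes of rough ER membrane proteins (translocon, signal peptide processing and glycosylation) were higher, with a median of 1.44, from Ssr2, a subunit of the translocon-associated complex, at 1.74, to Lrrc59, a ribosome-binding membrane protein, at 0.31. Canx, the lectin chaperone calnexin, and Ssr3 were the most abundant of them, at 1.49 and 1.28. With library totals 13 of the 24 were higher and 1 lower, and of the 23 ER-shaping genes 3 were higher and 10 lower; on TPM plus 1, 1 of the 24 was higher and 3 lower, and of the 23 ER-shaping genes 0 were higher and 18 lower. Over all 11181 tested genes, 510 were higher and 8649 lower with library totals, and 56 and 9570 on TPM plus 1. The 4 lower ER-shaping genes were 2 without mouse 1, 3, 4 or 5.

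Tail-anchored ER proteins, the class whose topology Synj2bp shares, showed another picture. The test called 2 of 18 genes higher and 1 lower, and their median was 0.00, against 17 lower with library totals. Cyb5a, cytochrome b5, averaged 798 TPM in WAM and 1808 TPM in lysates, with a change of 0.35 that was not called, and Serp1, a stress-associated ER protein, was at -0.01, not called. Sec61b, the tail-anchored subunit of the translocon, was called higher at 0.63 and Ube2j1, a ubiquitin-conjugating enzyme, lower at -0.52. With the mouse as a block the counts were 7 higher and 2 lower, and without mouse 2 there were 2 lower. Of 46 genes of mitochondrial outer membrane proteins, the membrane where SYNJ2BP sits, 23 passed as higher and 4 as lower, around a median of 0.23. Rmdn3, a tether to the ER, was highest at 1.45 and Maob, monoamine oxidase B, lowest at -0.60, while the abundant Acsl1, an acyl-CoA synthetase, had 0.76 and Bnip3, a mitophagy receptor, -0.01, not called. With library totals 1 was higher and 36 lower, with the mouse as a block 25 were higher and 8 lower, and without mouse 1 the 4 lower genes were 2. For comparison with this list and the tail-anchored one, library totals called 8649 of all 11181 tested genes lower. The block called 3747 of all tested genes higher and 4044 lower. All 13 mitochondrially encoded genes were higher, with a median of 3.84, between mt-Nd4 at 3.73 and mt-Co1 at 4.03; the abundant mt-Atp8 and mt-Atp6 had 3.85 and 3.82.

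The genes whose per-mouse log2 ratios of WAM to lysate lay nearest to those of Rrbp1 were sought among 6765 genes with at least 10 CPM on average. Lrp4, a receptor of the low density lipoprotein receptor family, was nearest, with a root mean square difference of 0.05 over 6 mice. Fam234b (0.11), Cpn2, a secreted subunit of carboxypeptidase N (0.12), Pigs, a subunit of the transamidase that attaches lipid anchors (0.13), and Cdh1, E-cadherin (0.13), followed, with changes of 1.44 to 1.55. Nearest to Synj2bp were Sh3bp5, an adaptor on the mitochondrial outer membrane (0.04), Dld, the matrix enzyme dihydrolipoamide dehydrogenase (0.06), Rnpepl1 (0.06), Cop1, a ubiquitin ligase (0.07), and Slc25a25, a carrier of the inner membrane (0.07). Their changes lay between -0.28 and -0.22, and those of Dld and Slc25a25 were not called. Because both sets of genes were picked by these same ratios, changes near those of Rrbp1 and Synj2bp follow from the choice.

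The authors' own measure divides WAM TPM by the mitochondrial content of the fraction (the mean ratio of WAM to lysate TPM over the 13 mitochondrial genes, 2.84 to 6.40 in the 6 mice) and expresses the result as a percentage of lysate TPM. The authors' deposited table of 1160 genes holds 3 of the 10. In the authors' deposited table Rrbp1 had an average of 27.5% (SEM 3.11), rank 38 of 1160, Arl6ip1 had 21.2% (SEM 2.84), rank 265, and Rtn3 had 19.97% (SEM 2.84), rank 363, where the median gene had 15.4%. This score is a ratio of TPM, so the shorter implied length of Rrbp1 in WAM raises it. From counts on the TMM scale, the log2 fold changes were 1.49 for Rrbp1, 1.501 for Arl6ip1 and 1.42 for Rtn3. Counts are not corrected for length. Where reads scale with length, as TPM assumes, a shorter transcript gives fewer counts per molecule. Which scale is nearer for Rrbp1 was not tested. The same formula applied to the TPM of all 10 gave Reep5 22.5% ± 5.22, Rtn4 16.9% ± 5.52, Ktn1 16.6% ± 6.95 and Ckap4 15.9% ± 4.94 (SD, n = 6 mice each). Atl2 came to 12.0% ± 4.58, Atl3 to 8.88% ± 2.92 and Synj2bp to 6.88% ± 3.88, the lowest of the 10. The coefficient was lowest in mouse 2, where Rrbp1 reached 40.4%, and highest in mouse 5, where it was 18.9%.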

How the data were processed

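Poly(A) RNA libraries of 6 WAM fractions and 6 lysates were compared; per the file headers the count columns name the mouse, which pairs the libraries. The authors deposited estimated counts per Ensembl gene, not normalised, and a table of TPM; per the file headers their enrichment score is coefficient-divided WAM TPM as a percentage of lysate TPM. Without saying what each did, the submitters' processing notes list kallisto 0.44.0 and fastp 0.12.4 beside R 3.5.0 with DESeq2 1.20.0; the genome build is not given in the sources used here. Of the count table's 48042 lines, 1 was kept for each of 35498 genes, and counts were rounded (32.6% of non-zero values were not whole). A further 60 per-sample columns were not used.

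Genes were tested with edgeR 4.0.16 (quasi-likelihood F test, TMM, filterByExpr, mouse not in the model, R 4.3.3), with Benjamini-Hochberg adjustment over 11181 genes. The SE of a log2 fold change is its absolute value divided by the square root of the F statistic, whose dispersion estimate draws on all genes. Alternatives were DESeq2 1.42.0, library totals with and without mitochondrially encoded genes, no filter, the mouse as a block, limma 3.58.1 on log2(TPM + 1) and log2(TPM + 0.1), and leaving out each mouse. Deviations from the group mean correlated between libraries of a mouse with r of 0.45 to 0.77, against at most 0.40 otherwise. P-values measure the spread between libraries. Ratios of 8 pairs were tested by exact permutation. Gene positions, transcripts and sequences come from GENCODE M21 (GRCm38), which need not be the authors' build. Besides the 10 genes and those marked as singled out or named after their values were seen, named genes follow a rule. They are the 2 most abundant and the highest and lowest called genes of each list, and the 5 nearest to Rrbp1 and to Synj2bp, predicted genes left out. The members and lists were chosen with earlier results of these data known.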

Additional observations from a re-analysis of the deposited data

Results flagged for a closer look

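In groups of 6 libraries, 36 sets of values were examined (20 of TPM and 16 of pair ratios) for a highest or lowest library whose gap to the next, as a share of the group's range, exceeds the critical value of Dixon's test, and 5 did; chance gives about 1 in 20. Rrbp1 in the lysate of mouse 1 had 133 TPM, against 171 to 189 in the other 5 lysates. Ckap4 in WAM of mouse 5 had 1.08 TPM, against 0.338 to 0.60 in the other 5 WAM libraries, and rests on 29 counts. Ktn1 in the lysate of mouse 3 had 5.65 TPM, against 3.88 to 4.44 in the others. The log2 ratio of Rtn4 to Rtn3 in WAM of mouse 1 was -2.19, against -1.71 to -1.49, and that of Atl3 to Atl2 in the lysate of mouse 4 was 0.41, against 0.77 to 0.94.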

How the results depend on the processing

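The calls over all genes, 3293 higher and 3218 lower, were 510 and 8649 with library totals, 1121 and 8056 with totals without mitochondrially encoded genes, 56 and 9570 with limma on TPM plus 1, 55 and 9569 on TPM plus 0.1, and 66 and 11073 without a filter. Library totals gave Atl2 -0.52 and Atl3 -0.90, both called, and, uncalled, Ktn1 -0.044, Rtn4 -0.0084 and Ckap4 0.015. Totals without mitochondrially encoded genes gave Atl2 -0.26 and Atl3 -0.65, both called, and, uncalled, Ckap4 0.27, Ktn1 0.20 and Rtn4 0.24. TPM plus 1, with and without a filter, gave Ktn1 -0.35, Rtn4 -0.38, Atl2 -0.87 and Atl3 -1.27, all called, and, uncalled, Ckap4 -0.18, Rtn3 -0.15, Arl6ip1 -0.054 and Reep5 0.049. TPM plus 0.1 gave Ktn1 -0.44, Rtn4 -0.39, Atl2 -0.90 and Atl3 -1.32, all called, and, uncalled, Ckap4 -0.40, Rtn3 -0.16, Arl6ip1 -0.054 and Reep5 0.054. These follow the shift of the median of all genes by -0.86 to -1.46 (-0.41 without a filter): relative to it, the 8 higher genes except Atl2 stayed above and Synj2bp below in all 14 alternatives, Atl2 in 13 and Atl3 in 12, the exceptions being on TPM. With the replicate block Atl3 was called at 0.22; it changed no other call of the 10.

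Leaving out each mouse gave 2991 to 3254 genes higher and 2699 to 3182 lower. It gave Rrbp1 1.38 to 1.6, Synj2bp -0.28 to -0.21, Ckap4 0.86 to 1.30, Ktn1 1.00 to 1.14, Rtn4 1.05 to 1.18, Rtn3 1.35 to 1.498, Reep5 1.53 to 1.74, Arl6ip1 1.44 to 1.57, Atl2 0.58 to 0.65 and Atl3 0.18 to 0.31. For the pairs it gave Rrbp1 to Synj2bp 1.58 to 1.87, to Ckap4 0.24 to 0.51 and to Ktn1 0.36 to 0.48, Ckap4 to Ktn1 -0.11 to 0.24 (-0.09 without mouse 4, -0.11 without mouse 5) and to Rtn4 -0.13 to 0.17 (0.06 without mouse 3, 0.17 without mouse 6), Rtn4 to Rtn3 -0.31 to -0.27 and to Reep5 -0.52 to -0.44, and Atl3 to Atl2 -0.41 to -0.35. With 5 mice, and so fewer assignments, Rrbp1 to Synj2bp was uncalled without mouse 2, 3 or 5, Rrbp1 to Ktn1 without any mouse but 6 and Atl3 to Atl2 without any but 4 (adjusted p at most 0.148), while Rtn4 to Rtn3 and to Reep5 were called without mouse 1. In the pair ratios the replicate block, with differences of 1.74, 0.43 and -0.39, left the 3 calls at an adjusted p of 0.05. Rtn4 to Rtn3 and Rtn4 to Reep5 came to the same 0.05, so the permutation within mice does not part them from those 3. From TPM, Ckap4 to Ktn1 was -0.016. Over the alternatives, 50 counts of list genes moved by over 1.5 times and 90 did not. Depth limits Ckap4, with 6 to 29 counts per library.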
